A study of Mus musculus with 4 samples.

Results

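Death receptors and their proximal signalling genes were examined in stimulated CD4+ T cells as a group of 10 genes out of the 16142 in the expression table. The genes were chosen by their known role: the ligands Fasl and Tnfsf10, the receptors Fas, Tnfrsf10b and Tnfrsf1a, the adaptor Fadd, the initiator caspase Casp8, its inhibitor Cflar, and the kinases Ripk1 and Ripk3. All 10 had a row in the table, and all 10 passed the filter of a mean of at least 1 FPKM over the 4 libraries. RNA-seq of polyA RNA was available for 2 libraries from WT B6 mice and 2 libraries from Cd4CreERT2 LSL-R111A fl/fl mice. R111A is a form of Regnase-1, the ribonuclease encoded by Zc3h12a, with a changed cleavage site for the paracaspase MALT1. The transgene sat in the Rosa26 locus under a CAG promoter and a floxed STOP cassette, was joined to EGFP through P2A, and was switched on in Cd4-expressing cells by a tamoxifen-inducible Cre. Mice of both genotypes received tamoxifen at 75 mg/kg intraperitoneally for 5 days. Splenic CD4+ T cells were purified, sorted by FACS and activated through CD3 (5 µg/mL of antibody) and CD28 (1 µg/mL of antibody) over 12 h. The WT mice carried neither the Cre nor the transgene in the labels, so these cannot be told apart from the mutant protein. The study's methods give 6 to 12 weeks of age and both sexes for mice in general. The labels do not give the age of these mice, nor whether the 2 libraries of a group came from separate animals, so p-values measure only the spread between these libraries, which may be technical.

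Death receptors are members of the TNF receptor family that carry a death domain in the cytoplasm. After ligand binding, Fas and the TRAIL receptor recruit the adaptor FADD, which brings pro-caspase-8 into a complex where it is activated. cFLIP, the product of Cflar, resembles caspase-8 without its activity and competes for FADD in that complex. TNF receptor 1 first forms a complex around RIPK1 that drives NF-kB. When caspase-8 is blocked, RIPK1 and RIPK3 can instead start necroptosis. In T cells, Fas and its ligand are best known for activation-induced death after repeated stimulation.

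The unit throughout is FPKM, a read count divided by transcript length and library size. The FPKM values summed to 801475 and 836143 in the WT replicates and to 1053551 and 1012215 in the R111A replicates. The read totals were not used here. From steps between 0.1 and 0.6 FPKM, where single reads can be told apart, WT replicate 1 was estimated to be 1.00 times as deep as WT replicate 2, 1.06 times as deep as R111A replicate 1 and 1.18 times as deep as R111A replicate 2. These estimates are coarse and disagree between pairs, since WT replicate 2 came out as deep as R111A replicate 1 (ratio of 1). The gene of the transgene, Zc3h12a, was at 16.97 and 15.72 FPKM in WT against 196.30 and 130.87 FPKM in R111A, with a log2 fold change of 3.22 (SE 0.19, adjusted p = 9.2e-06), and endogenous and transgene reads cannot be told apart.

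R111A CD4+ T cells held more mRNA for Fas, for its ligand Fasl and for the receptors Tnfrsf10b and Tnfrsf1a, and less for Fadd, Cflar and Ripk3. Tnfsf10, Casp8 and Ripk1 did not pass the test. With limma on log2(FPKM + 1), 4 of the 10 genes were higher and 3 were lower at an adjusted p under 0.05, against 21.2% higher and 32.1% lower among all 9831 genes tested. With a 2-fold change added as a threshold, 3 of the 10 were higher and 0 were lower, against 8.52% and 8.34% of all genes. The 2 groups of libraries did not overlap for 5 higher and 3 lower genes of the 10, against 32.0% and 46.3% of all genes. The lower counts were thus near or under the share in the whole table, and without WT replicate 2 the number of the 10 genes that passed as lower was 0. The median log2 fold change was 0.12 over the 10 genes and -0.12 over all genes tested. The smallest two-sided p of an exact permutation test is 0.333 with 2 libraries against 2, and each adjusted p here rests on the spread that limma shared across genes.

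**Figure D1:**
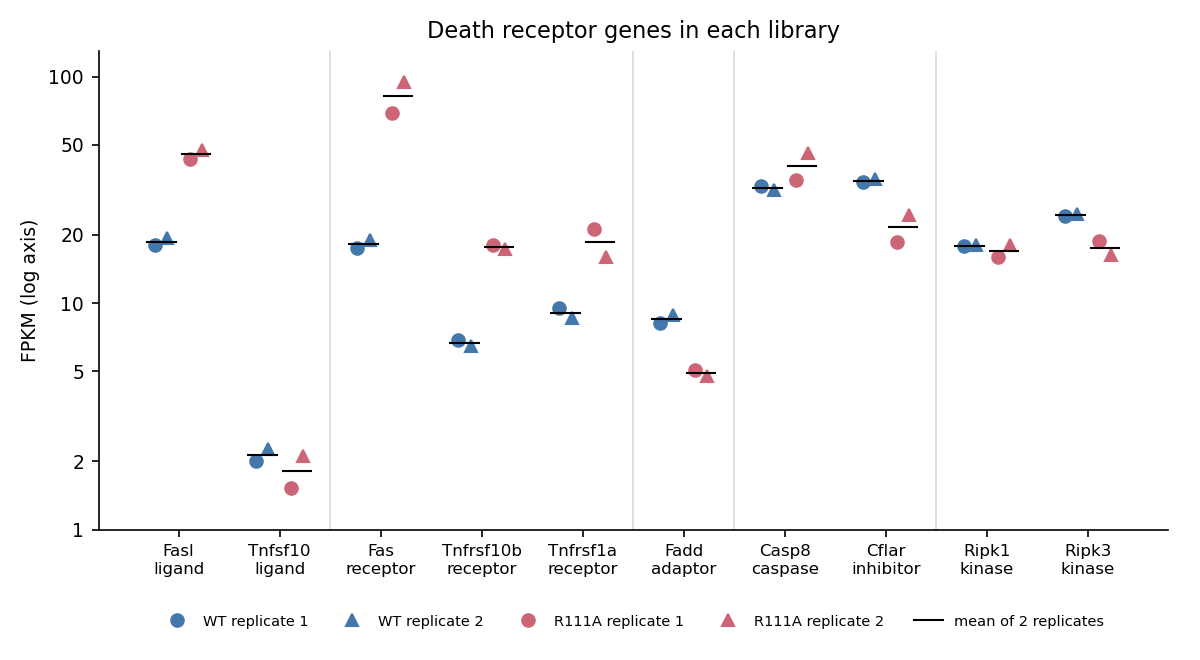
FPKM of each of the 10 genes (log axis) in each library, ordered by role, with WT libraries in blue, R111A libraries in red and a bar at the mean of 2 replicates. Fas lies at 17.59 and 19.00 FPKM in WT against 69.26 and 94.68 FPKM in R111A, while the libraries of the groups overlap for Tnfsf10 and Ripk1.

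Among the ligands, Fasl and Tnfsf10 differed in level and in change. Fasl (NCBI gene 14103; chr1:161780691-161788495 of GRCm38, the assembly of mm10), the membrane ligand of Fas, was at 18.04 and 19.34 FPKM in WT against 43.27 and 47.60 FPKM in R111A. Both R111A libraries stood above both WT libraries, and the means were 18.7 ± 0.919 and 45.4 ± 3.06 FPKM (SD, n = 2 each). The log2 fold change was 1.24 (SE 0.13, adjusted p = 0.00013), a ratio of means of 2.43. Tnfsf10 (NCBI gene 22035; chr3:27317077-27339665) encodes TRAIL, the ligand of the receptor encoded by Tnfrsf10b. It was the least abundant of the 10 genes in both groups, at 2.01 and 2.27 FPKM in WT against 1.52 and 2.12 FPKM in R111A. Its groups overlapped, and its log2 fold change of -0.16 (95% interval -0.52 to 0.20) did not pass the test (adjusted p = 0.41). The change was -0.0080 without R111A replicate 1, -0.32 without R111A replicate 2 and -0.39 after TPM rescaling.

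All 3 receptors rose. Fas (NCBI gene 14102; chr19:34290647-34327775) was at 17.59 and 19.00 FPKM in WT against 69.26 and 94.68 FPKM in R111A. The means were 18.3 ± 0.997 and 82.0 ± 18.0 FPKM (SD, n = 2 each), and the lower R111A library was still far above the higher WT library. Fas had the largest change of the 10 genes, with a log2 fold change of 2.09 (SE 0.17, adjusted p = 3.1e-05) and a ratio of means of 4.48. Tnfrsf10b (NCBI gene 21933; chr14:69767472-69784411), the death receptor for TRAIL, was at 6.88 and 6.48 FPKM in WT against 18.03 and 17.31 FPKM in R111A. Its replicates lay close together in both groups and did not overlap between them. The log2 fold change was 1.28 (SE 0.14, adjusted p = 0.00012), a ratio of means of 2.65. Tnfrsf1a (NCBI gene 21937; chr6:125349723-125362483) encodes TNF receptor 1, whose death domain binds TRADD rather than FADD directly. It was at 9.49 and 8.59 FPKM in WT against 21.28 and 15.99 FPKM in R111A, again without overlap. Its log2 fold change of 0.96 (SE 0.17, adjusted p = 0.0016) fell just short of 2-fold on the log2(FPKM + 1) scale, though the ratio of means was 2.06. It passed 2-fold in 5 of 14 alternatives, at 1.02 to 1.15.

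The single adaptor of the group fell. Fadd (NCBI gene 14082; chr7:144578323-144582441), which links the death domains of Fas and the TRAIL receptor to caspase-8, was at 8.13 and 8.88 FPKM in WT against 5.05 and 4.75 FPKM in R111A. The R111A libraries were both below the WT libraries, with means of 8.505 ± 0.530 and 4.90 ± 0.212 FPKM (SD, n = 2 each). The log2 fold change was -0.69 (SE 0.14, adjusted p = 0.0036). Without WT replicate 2 the value was -0.63 and did not pass (adjusted p = 0.068, in a range of 0.00015 to 0.068 over 14 alternatives).

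Casp8 and Cflar are neighbouring genes on chromosome 1 with 36348 bases between them, and of these only Cflar passed. Casp8 (NCBI gene 12370; chr1:58795233-58847503) was at 32.71 and 31.61 FPKM in WT against 34.85 and 45.89 FPKM in R111A. Both R111A libraries were above WT, one of them only slightly, and the log2 fold change of 0.31 (95% interval -0.05 to 0.67) did not pass the test (adjusted p = 0.13). The change was 0.50 without R111A replicate 1 and 0.11 without R111A replicate 2. With every library kept, the adjusted p of Casp8 was 0.059 to 0.92 over 10 alternatives. Cflar (NCBI gene 12633; chr1:58711311-58758884) was at 34.08 and 35.32 FPKM in WT against 18.55 and 24.57 FPKM in R111A. It was the most abundant of the 10 genes in WT and fell below Casp8 in both R111A libraries. The log2 fold change was -0.67 (SE 0.16, adjusted p = 0.0073), and the R111A mean was 37.9% below the WT mean. Without WT replicate 2 the value was -0.65 and did not pass (adjusted p = 0.061, in a range of 0.00014 to 0.061).

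The kinases of the necroptosis branch were expressed in both groups. Ripk1 (NCBI gene 19766; chr13:34002225-34035170), a scaffold of the TNF receptor 1 complex as well as a kinase, was at 17.84 and 18.06 FPKM in WT against 16.0 and 18.04 FPKM in R111A. The groups overlapped, and the log2 fold change was -0.07 (95% interval -0.39 to 0.24; adjusted p = 0.67). Its sign depended on the scaling: it was 0.01 with median-of-ratios factors and 0.04 after quantile normalization, and -0.39 after rescaling to TPM, where it passed (adjusted p = 0.041, in a range of 0.041 to 0.95 over 14 alternatives). Ripk3 (NCBI gene 56532; chr14:55784995-55788857), the kinase that phosphorylates MLKL, was at 24.34 and 24.61 FPKM in WT against 18.72 and 16.38 FPKM in R111A. Both R111A libraries were below WT, with a log2 fold change of -0.46 (SE 0.14, adjusted p = 0.021). This call was lost with median-of-ratios factors (-0.37, adjusted p = 0.053), after quantile normalization (-0.35, adjusted p = 0.065), without WT replicate 1 (-0.47, adjusted p = 0.21) and without WT replicate 2 (-0.45, adjusted p = 0.22), in a range of 0.00059 to 0.22 over 14 alternatives.

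The order of the 10 genes by FPKM, a level per transcript length, differed between the groups. In WT the mean was highest for Cflar (34.7 FPKM), followed by Casp8 (32.2 FPKM) and Ripk3 (24.5 FPKM). Fasl, Fas and Ripk1 came next at 18.7, 18.3 and 17.95 FPKM, and their replicates overlapped, so that their order was within the spread. Tnfrsf1a (9.04 FPKM) and Fadd (8.505 FPKM) also overlapped, above Tnfrsf10b (6.68 FPKM) and Tnfsf10 (2.14 FPKM). In R111A the mean of Fas (82.0 FPKM) was the highest and stood apart from that of Fasl (45.4 FPKM), whose replicates overlapped with those of Casp8 (40.4 FPKM). Cflar, Tnfrsf1a, Tnfrsf10b, Ripk3 and Ripk1 followed at 21.6, 18.6, 17.7, 17.6 and 17.0 FPKM, each overlapping with the next. Fadd (4.90 FPKM) and Tnfsf10 (1.82 FPKM) were the lowest and were separate from the others.

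The scaling of the libraries bore on the size of these changes. Rescaling to TPM moved the median log2 fold change of all genes tested from -0.12 to -0.42, and the calls in the whole table from 2088 higher and 3152 lower (39.8% higher) to 1335 higher and 5096 lower (20.8% higher). Other scalings moved them the other way, to 2390 higher and 2651 lower (47.4% higher) with median-of-ratios factors and to 2327 higher and 2630 lower (46.9% higher) after quantile normalization. Without WT replicate 1 or 2, the calls in the whole table were 1413 or 1441 higher and 1957 or 1937 lower. After TPM rescaling the log2 fold changes of Fasl (0.92) and Tnfrsf10b (0.98) were under 2-fold, that of Cflar reached it (-1.0), and that of Casp8 was -0.02. Only Fas then remained past 2-fold among the higher genes, at 1.77, and 4 of the 10 genes were called lower. The median of the 10 genes moved from 0.12 to -0.21 after TPM rescaling. It was 0.20 with median-of-ratios factors and 0.24 after quantile normalization. Without R111A replicate 2 it was -0.02, and without R111A replicate 1 it was 0.25. TPM rescaling multiplies each library by 1 factor, so values relative to the median of all genes stay in place apart from effects of the pseudocount and the filter. As deposited and after TPM rescaling, Fas lay 2.20 and 2.19 above the median on the log2 scale, Fasl 1.35 and 1.33, Tnfrsf10b 1.40 and 1.40, Tnfrsf1a 1.07 and 1.07, and Casp8 0.42 and 0.40. Against the same median, Fadd was at -0.57 and -0.57, Cflar at -0.56 and -0.58, and Ripk3 at -0.35 and -0.36. Quantile normalization, which is not a single factor, put Fas 2.31 above the median and moved Tnfsf10 from -0.05 to -0.26.

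**Figure D2:**
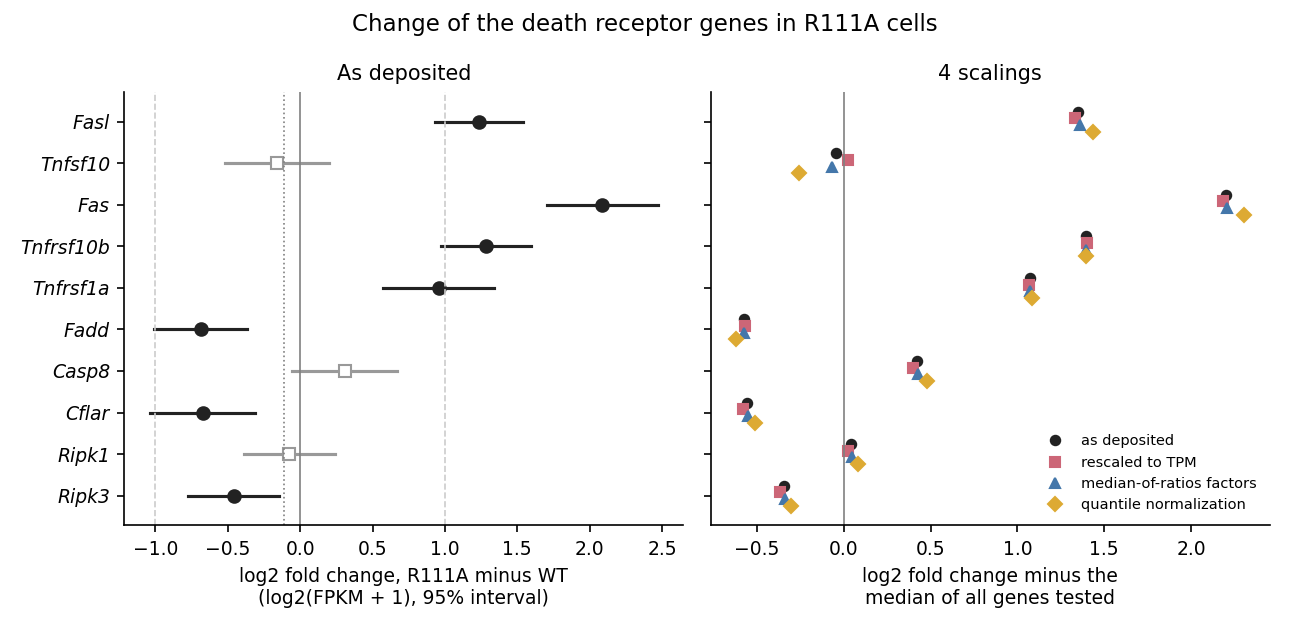
Left, log2 fold change of R111A minus WT for each gene with its 95% interval, filled black where the adjusted p was under 0.05 and open grey otherwise, with dashed lines at 2-fold, a solid line at 0 and a dotted line at the median of all genes tested (-0.12). Right, the same change minus the median of all genes under 4 scalings, where Fas lies 2.20 above the median as deposited and 2.19 after TPM rescaling, and only Tnfsf10 has scalings on both sides of the median.

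A ratio of 2 genes in the same library is unchanged when the library is multiplied by 1 factor, as in TPM rescaling, but quantile normalization can change it. The ratios here are of FPKM as deposited. The ratio of Cflar to Casp8 was 1.04 and 1.12 in the WT libraries and 0.532 and 0.535 in the R111A libraries, a log2 difference of -1.02. The inhibitor was thus about as abundant per length as the caspase in WT and fell below it in R111A. The ratio of Fas to Cflar was 0.516 and 0.538 in WT against 3.73 and 3.85 in R111A, a log2 difference of 2.85, and Fas passed from below its downstream inhibitor to above it. The ratio of Fas to Fasl was 0.975 and 0.982 in WT and 1.60 and 1.99 in R111A, so the receptor gained on its ligand. For Fadd to Casp8 the ratio was 0.249 and 0.281 in WT and 0.145 and 0.104 in R111A, a log2 difference of -1.11. The ratio of Tnfrsf10b to Tnfsf10, the TRAIL receptor over its ligand, was 3.42 and 2.85 in WT and 11.9 and 8.17 in R111A. Fas to Tnfrsf1a was 1.85 and 2.21 in WT and 3.25 and 5.92 in R111A. Ripk1 to Ripk3 was 0.733 and 0.734 in WT and 0.855 and 1.10 in R111A. All 7 ratios were separate between the groups, but they share genes. Of all genes tested, 32.0% were likewise separate as higher and 46.3% as lower. The share among ratios of other genes was not computed. The ratios are given as descriptions, without a test.

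**Figure D3:**
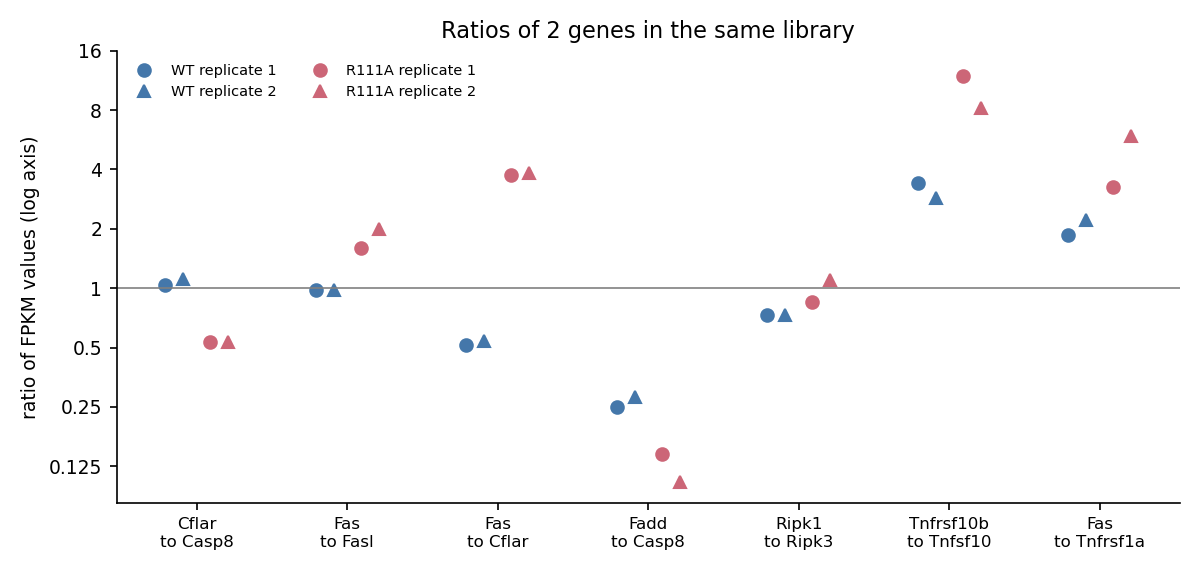
Ratio of the FPKM values of 2 genes within each library (log axis), with WT libraries in blue and R111A libraries in red, circles for replicate 1 and triangles for replicate 2. Cflar to Casp8 is at 1.04 and 1.12 in WT and at 0.532 and 0.535 in R111A, and Fas to Cflar crosses 1 between the groups.

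The promoters of genes that rose or fell are shown because 3 receptors and 1 ligand moved in the same direction. The RefSeq promoter set of GRCm38 (250 bases before to 50 bases after the start point of each entry) held 9 of the 10 genes, with 10 entries since Ripk1 had 2. Tnfrsf10b had no entry, so its promoter was not searched. The 10 entries were searched on both strands for AP-1 (TGANTCA), GAS (TTCNNNGAA), ISRE (GAAANNGAAA), EGR (GCGNGGGCG), CRE (TGACGTCA), E2F (TTTCCCGC, TTTCGCGC, TTTGCCGC or TTTGGCGC), NF-kB and a p53 half-site. Stretches with a match are printed 5′ to 3′ on the strand of the gene, with the match in capitals.
Fas, chr19:34290428-34290594, plus strand, AP-1 then GAS: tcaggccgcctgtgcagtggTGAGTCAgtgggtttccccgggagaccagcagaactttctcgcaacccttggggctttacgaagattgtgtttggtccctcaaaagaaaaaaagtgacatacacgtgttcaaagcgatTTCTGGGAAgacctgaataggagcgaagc
Fasl, chr1:161788581-161788630, minus strand, p53 half-site: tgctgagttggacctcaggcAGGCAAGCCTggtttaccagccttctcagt
Tnfrsf1a, chr6:125349473-125349507, plus strand, GAS: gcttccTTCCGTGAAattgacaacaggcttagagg
Fadd, chr7:144582442-144582473, minus strand, E2F: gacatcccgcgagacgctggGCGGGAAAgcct
Cflar, chr1:58711489-58711514, plus strand, ISRE: acgtctgcTTTCGGTTTCtgggcgtc

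In Fas the AP-1 match began at -211 and the GAS match at -93 relative to the start point of the promoter entry, which can differ from the outer end of the gene given above, and in Tnfrsf1a a GAS match began at -244. Ripk1 held GAS matches at -108 and -11 and an ISRE match at -5, the last 2 of which overlap. The Fasl match began at -115, the Fadd match at -12 and the Cflar match at 7. Of all 32851 promoters of this length, 7.81% held the AP-1 letters, 8.30% GAS, 3.44% ISRE, 2.26% E2F and 8.36% the p53 half-site. The NF-kB, EGR and CRE motifs, held by 8.46%, 5.55% and 1.79% of all promoters, had 0 matches in the 10 entries. No motif was found in all 3 of the higher genes that the set held. A match describes the letters in the window and does not show that a factor binds there.

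The wider pathway was read from 6 lists with 66 genes, of which 65 were in the table and 59 were tested. In R111A 15 of the 59 were higher and 15 were lower at an adjusted p under 0.05, and 4 in each direction changed at least 2-fold. Of all genes tested, 21.2% were higher and 32.1% lower, and 8.52% and 8.34% with the 2-fold threshold, which is the background for the count of each list below. The median over the 59 genes was -0.05 on the log2 scale (-0.12 in the whole table). After TPM rescaling 9 were higher and 30 lower, and without WT replicate 2 the lower count was 9. Tnfrsf22, Rbck1, Otulin, Cul3, Daxx and Stub1, which did not pass as deposited, passed as lower after TPM rescaling. The lists were described by counts and medians, without a set test.

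Of the other death ligands and death-domain receptors, 4 of 8 genes were tested, 1 (Tnf) was higher and 2 (Tnfrsf21 and Tnfrsf25) were lower. Tnf, the ligand of TNF receptor 1, was at 99.92 and 100.87 FPKM in WT against 168.25 and 139.03 FPKM in R111A, with a log2 fold change of 0.60 (SE 0.14, adjusted p = 0.0062). Its receptor gene Tnfrsf1a rose as well. So did Tnfrsf1b, a TNF receptor gene without a death domain, from 36.27 and 33.95 FPKM to 111.2 and 81.37 FPKM (log2 fold change 1.41). The Tnf call was lost after TPM rescaling (0.27, adjusted p = 0.10), without WT replicate 1 (0.60, adjusted p = 0.057) and without WT replicate 2 (0.61, adjusted p = 0.051), in a range of 0.00045 to 0.10 over 14 alternatives. Lta, for lymphotoxin alpha, was at 79.74 and 80.18 FPKM in WT against 89.18 and 74.64 FPKM in R111A and did not pass. Tnfrsf21, for death receptor 6, fell from 3.20 and 3.10 FPKM to 1.25 and 0.80 FPKM (log2 fold change -1.04, SE 0.16, adjusted p = 0.00074). Among the decoy receptors for TRAIL, which bind it without a death signal, Tnfrsf23 rose from 0.68 and 0.56 FPKM to 2.03 and 2.02 FPKM (log2 fold change 0.90, adjusted p = 0.00077). Tnfrsf23 met the filter of 1 FPKM only through its R111A values, and a filter at a mean of 5 FPKM removed it. Tnfrsf22 was at 11.53 and 9.56 FPKM in WT against 8.19 and 10.51 FPKM in R111A, with overlapping groups.

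The adaptors and ubiquitin machinery of the TNF receptor 1 complex were tested for all 24 genes, of which 8 were higher and 2 lower, against 21.2% and 32.1% in the whole table. The median log2 fold change was 0.16, and -0.17 after TPM rescaling. The lower genes were Spata2 and Mapkapk2. TPM rescaling turned the counts to 4 higher and 8 lower, the higher count was 5 without WT replicate 1 or 2, and the lower count was 5 and 4 without R111A replicates 1 and 2. Traf2, the adaptor that brings cellular inhibitors of apoptosis to the complex, had the only 2-fold change. It was at 20.08 and 22.30 FPKM in WT against 55.33 and 53.68 FPKM in R111A (log2 fold change 1.32, SE 0.13, adjusted p = 8.6e-05). The 2 most abundant of these genes by the mean over the 4 libraries did not pass. Rbck1, a subunit of the linear ubiquitin ligase, was at 81.33 and 83.12 FPKM in WT against 85.59 and 71.86 FPKM in R111A. Otulin, which removes linear ubiquitin, was at 71.55 and 74.17 FPKM in WT against 60.04 and 58.94 FPKM in R111A (adjusted p = 0.079), and without R111A replicate 1 or 2 it passed at -0.30 or -0.27 (adjusted p = 0.027 or 0.036, in a range of 0.0016 to 0.74 over 14 alternatives).

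Regulators associated with the FADD and caspase-8 complex passed in 2 of 10 genes upward (Pea15a and Dedd2) and 1 of 10 downward (Casp8ap2), with a median of -0.04. The higher count was 1 after TPM rescaling and without WT replicate 1. The lower count was 0 in 6 alternatives (pseudocount of 0.1 FPKM, no filter, median-of-ratios factors, quantile normalization, and without WT replicate 1 or 2), 2 without R111A replicate 2 and 5 after TPM rescaling. The median was 0.05 with median-of-ratios factors, 0.07 after quantile normalization and -0.36 after TPM rescaling. Pea15a, a death effector domain protein that can bind FADD, rose from 8.99 and 7.42 FPKM to 27.42 and 23.03 FPKM (log2 fold change 1.51, SE 0.16, adjusted p = 0.00011), opposite in direction to Cflar. Cul3, the scaffold of a ligase that ubiquitinates caspase-8, was at 33.57 and 34.00 FPKM in WT against 33.18 and 31.90 FPKM in R111A. Daxx, a Fas-binding protein with nuclear roles, was at 34.09 and 32.63 FPKM in WT against 32.25 and 25.87 FPKM in R111A. Neither passed. The log2 fold change of Daxx was -0.20 (adjusted p = 0.28). It was -0.35 without R111A replicate 1 and -0.05 without R111A replicate 2. With every library kept, the adjusted p of Daxx was 0.0092 to 0.65 over 10 alternatives, lowest after TPM rescaling (-0.53).

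Of the necroptosis effectors and regulators, 7 of 8 genes were tested, 2 were higher (Zbp1 and Peli1) and 3 were lower (Ticam1, Pgam5 and Aurka), against 21.2% and 32.1% in the whole table. The median of -0.35 was -0.68 after TPM rescaling, -0.10 after quantile normalization, -0.11 when genes under a mean of 5 FPKM were dropped, and -0.55 and -0.11 without R111A replicates 1 and 2. Without WT replicate 2 the lower count was 1. Zbp1, a nucleic acid sensor that engages RIPK3, rose from 20.09 and 18.84 FPKM to 47.39 and 34.33 FPKM (log2 fold change 1.02, SE 0.17, adjusted p = 0.0013), and after TPM rescaling its change of 0.69 was under 2-fold. Ticam1, for the adaptor TRIF that also engages RIPK3, fell from 10.33 and 9.51 FPKM to 4.91 and 3.60 FPKM (log2 fold change -1.07, SE 0.16, adjusted p = 0.00087). Peli1, a ubiquitin ligase with RIPK1 and RIPK3 among its substrates, rose from 30.95 and 32.26 FPKM to 61.03 and 65.33 FPKM (log2 fold change 0.98, adjusted p = 0.00037). Stub1, another ubiquitin ligase, was the most abundant by the mean over the 4 libraries. It was at 81.69 and 84.28 FPKM in WT and 76.72 and 55.06 FPKM in R111A. It did not pass (log2 fold change -0.35, adjusted p = 0.11). The change was -0.58 without R111A replicate 1 and -0.11 without R111A replicate 2. With every library kept, the adjusted p of Stub1 was 0.0024 to 0.65 over 10 alternatives, lowest after TPM rescaling (-0.68). Mlkl, the pore-forming effector downstream of RIPK3, was below the filter, at 1.02 and 0.59 FPKM in WT against 0.37 and 0.39 FPKM in R111A.

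Downstream, the targets of caspase-8 and the executioners included 12 tested genes out of 13, of which 1 was higher and 7 were lower, against 21.2% and 32.1% in the whole table. The median was -0.47, and -0.80 after TPM rescaling. Bid, which caspase-8 cleaves to connect death receptors to mitochondria, fell from 31.82 and 35.84 FPKM to 12.15 and 10.17 FPKM (log2 fold change -1.52, SE 0.15, adjusted p = 7.7e-05). Parp1, a DNA repair enzyme cleaved by executioner caspases, fell from 81.88 and 72.92 FPKM to 26.08 and 23.13 FPKM (log2 fold change -1.61, SE 0.14, adjusted p = 4.1e-05). Cycs, for cytochrome c, was the most abundant of the list and fell from 109.43 and 112.96 FPKM to 63.42 and 71.69 FPKM (log2 fold change -0.71, adjusted p = 0.0020). Apaf1, the scaffold of the apoptosome, was the 1 gene that rose, from 3.78 and 3.59 FPKM to 9.31 and 10.00 FPKM (log2 fold change 1.18, SE 0.14, adjusted p = 0.00020), and by 0.91 after TPM rescaling. The genes that fell include an inhibitor of caspases, Xiap, as well as promoters of death. Without WT replicate 2, and with no filter on low values, the lower count was 4, and without R111A replicate 1 the higher count was 2.

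**Figure D4:**
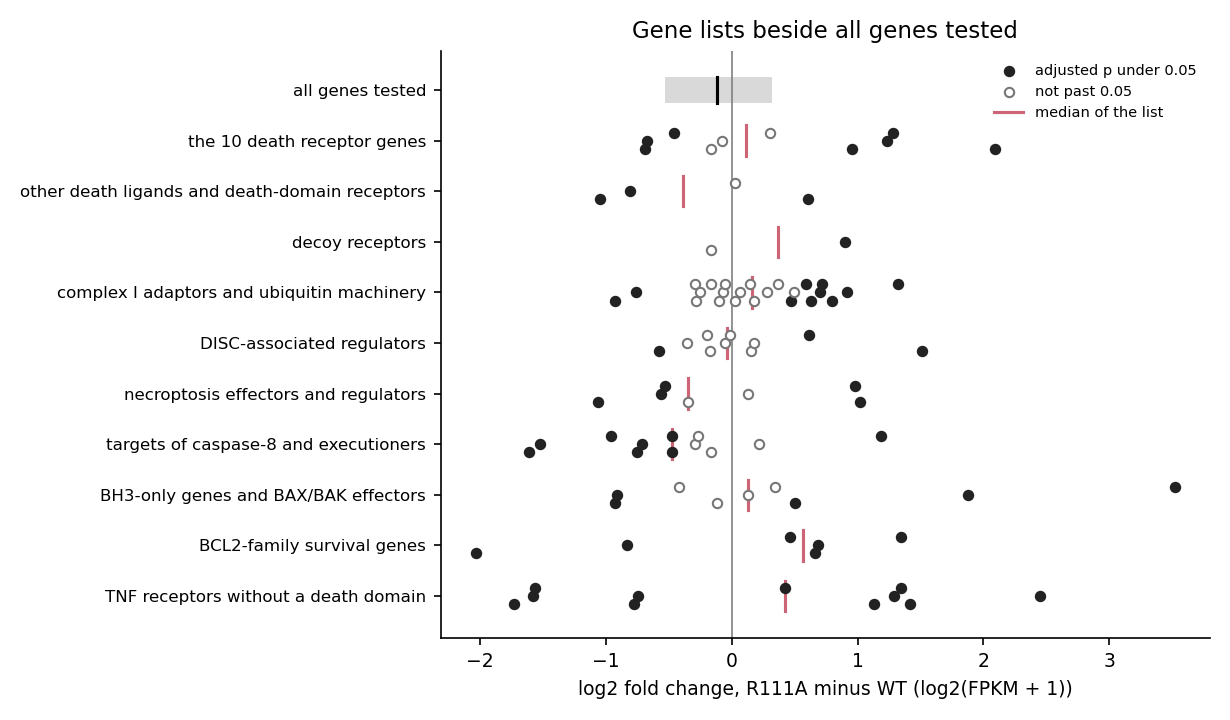
Log2 fold change of R111A minus WT for each tested gene of each list, filled where the adjusted p was under 0.05, with a red line at the median of the list; the grey bar spans the middle 50% of all genes tested, with their median at -0.12. The median is 0.12 for the 10 death receptor genes and -0.47 for the targets of caspase-8 and executioners.

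Related gene groups were set beside these as a comparison. Of the BH3-only genes and BAX/BAK effectors of the mitochondrial pathway, 9 of 11 genes in the table were tested, 3 were higher (Bbc3, Pmaip1 and Bax) and 2 were lower (Bik and Bnip3), with a median of 0.13. After TPM rescaling the lower count was 4 and the median -0.20. When genes under a mean of 5 FPKM were dropped they were 0 and 0.34, and the median was 0.07 without R111A replicate 1. Bbc3, for PUMA, rose from 6.35 and 6.43 FPKM to 99.13 and 70.82 FPKM (log2 fold change 3.52, SE 0.17, adjusted p = 4.5e-06), a larger change than that of Fas. Pmaip1, for NOXA, rose from 1.97 and 2.32 FPKM to 8.51 and 13.02 FPKM (log2 fold change 1.88, adjusted p = 0.00011). Of the BCL2-family survival genes, 6 of 7 were tested, with 4 higher (Bcl2, Mcl1, Bcl2a1b and Bcl2a1d) and 2 lower (Bcl2l1 and Bcl2l2), a median of 0.56 that was 0.24 after TPM rescaling and 0.71 after quantile normalization. The higher count was 2 after TPM rescaling and without WT replicate 1 or 2, and the lower count was 1 when genes under a mean of 5 FPKM were dropped. Bcl2l1, for Bcl-xL, fell from 88.55 and 95.78 FPKM to 24.83 and 18.94 FPKM (log2 fold change -2.04, SE 0.16, adjusted p = 2.7e-05). Bcl2a1d rose from 100.09 and 111.85 FPKM to 262.49 and 276.96 FPKM (log2 fold change 1.34, adjusted p = 6.8e-05), but it is nearly identical to other Bcl2a1 copies, between which reads can be split.

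TNF receptors without a death domain moved in both directions, as the death receptors and their partners did. Of 15 such genes 11 were tested, 6 were higher and 5 were lower, and each of the 11 passed, against 21.2% higher and 32.1% lower in the whole table. The median of 0.42 was 0.11 after TPM rescaling, 0.0072 with no filter on low values and 1.13 when genes under a mean of 5 FPKM were dropped, which left 3 lower. Tnfrsf26 rose from 7.09 and 5.27 FPKM to 35.12 and 40.70 FPKM (log2 fold change 2.45, SE 0.17, adjusted p = 1.5e-05). Tnfrsf18, for the costimulatory receptor GITR, fell from 192.45 and 210.76 FPKM to 57.41 and 62.35 FPKM (log2 fold change -1.73, SE 0.13, adjusted p = 2.2e-05). The other higher genes were Tnfrsf1b, Tnfrsf9, Tnfrsf12a, Cd27 and Tnfrsf14, and the other lower genes were Tnfrsf4, Tnfrsf8, Cd40 and Tnfrsf13b. With the 2-fold threshold 5 of the 11 were higher and 3 lower, against 8.52% and 8.34% of all genes tested. The difference between these receptors and those with a death domain was not tested.

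The cells were labelled CD4+ T cells, and T cell markers were abundant in all 4 libraries. The 10 T cell markers summed to 2390 and 2386 FPKM in WT and to 2017 and 1849 FPKM in R111A, with 1 higher and 5 lower. The most abundant by the mean over the 4 libraries was Cd3g. It was at 453.99 and 465.39 FPKM in WT against 288.70 and 312.87 FPKM in R111A. Cd4 itself was at 157.54 and 131.28 FPKM in WT against 70.69 and 51.35 FPKM in R111A. In bulk RNA, fewer cells of a type and less RNA per cell cannot be told apart. Of the 8 activation markers 2 were higher and 5 lower, and Nr4a1, the highest by the mean over the 4 libraries, rose from 145.72 and 143.84 FPKM to 982.95 and 616.23 FPKM. In WT the highest was Irf4, which fell from 426.09 and 367.72 FPKM to 117.23 and 134.59 FPKM. Treg markers summed to 20.96 and 18.39 FPKM in WT and to 12.45 and 11.98 FPKM in R111A. Of the 4, Foxp3 was lower (from 11.31 and 8.78 FPKM to 2.86 and 1.86 FPKM), Ikzf4 was higher (from 3.33 and 3.09 FPKM to 5.95 and 4.29 FPKM), and Ikzf2 and Nrp1 did not pass. CD8+ T cell markers summed to 7.31 and 6.76 FPKM in WT and to 3.88 and 4.46 FPKM in R111A, nearly all of it Cd8b1, and Cd8a was at 0.20 FPKM or less.

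Markers of other cells were low but moved with the groups, as did Fas and Fasl, which NK and myeloid cells can also express. The labels give 2 steps that would remove such cells before activation, a kit that leaves CD4+ T cells untouched and then a FACS sort of CD4+ T cells, but not the gates of the sort. The study's methods add a first gate on GFP for mice with a GFP reporter, and whether it was used for these libraries is not stated. All 7 NK cell markers were higher in both R111A libraries than in WT. Of these 7, 3 passed the filter, each only through its R111A values. The share of 32.0% higher among all genes tested covers only genes past the filter, so it is not a background for the rest. More genes were above 0 in the R111A libraries (13438 and 13364) than in the WT libraries (12665 and 12728). The 7 markers summed to 2.65 and 2.18 FPKM in WT and to 22.54 and 21.00 FPKM in R111A. Most of this came from Klrd1, at 1.00 and 0.40 FPKM in WT against 12.14 and 13.59 FPKM in R111A, and from Eomes, both of which activated T cells also express. The defining receptor gene Ncr1 was at 0.05 and 0 FPKM in WT against 0.30 and 0.12 FPKM in R111A, and Klra8 was listed at 0 in both WT libraries. Of the 10 myeloid markers 9 were higher in both R111A libraries. Only 4 of the 10 passed the filter, so the 32.0% does not cover the rest here either. The 10 markers summed to 5.85 and 2.38 FPKM in WT and to 19.18 and 15.99 FPKM in R111A. The highest by the mean over the 4 libraries was Cd68, at 1.54 and 0.78 FPKM in WT against 8.89 and 6.81 FPKM in R111A. The highest in WT by the mean was Tyrobp, which did not pass, at 2.94 and 0.63 FPKM in WT against 0.85 and 0.97 FPKM in R111A, while Itgax was listed at 0 in both WT libraries and Csf1r was at 0.07 FPKM or less. Of the B cell markers, Cd79a was the highest by the mean over the 4 libraries. It was at 0.32 and 0.24 FPKM in WT against 2.99 and 2.37 FPKM in R111A and passed as higher. Cd79b passed as higher too, from 1.15 and 0.24 FPKM to 1.51 and 1.71 FPKM (adjusted p = 0.039). Both genes met the filter only through their R111A values, so these calls are not independent of the filter. Blnk was at 0.08 FPKM in both WT libraries against 0.20 and 0.22 FPKM in R111A. These markers did not all move together. Fcer2a, which was above Cd79a in WT, fell from 0.72 and 1.08 FPKM to 0.03 and 0 FPKM. Ms4a1 overlapped at 0.23 and 0.17 FPKM in WT against 0.18 and 0.22 FPKM in R111A. The 6 erythroid markers summed to 0.66 and 0.70 FPKM in WT and to 12.93 and 12.97 FPKM in R111A, nearly all of it Hba-a1, while Hbb-bs and Hba-a2 were listed at 0 in all 4 libraries. The part of these cells in the changes of Fas, Fasl and the other death receptor genes was not tested.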

How the data were processed

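PolyA RNA was sequenced at BGI. Per the submitters' processing notes, reads were processed with Bowtie2 (version 2.4.4), RSEM (version 1.2.28) and mm10. The authors deposited FPKM values of 16142 genes for 4 libraries, with read numbers unknown. The authors called genes with DESeq2. Here log2(FPKM + 1) was tested with limma (version 3.58.1, R 4.3.3; lmFit, eBayes with a trend, two-sided, Benjamini-Hochberg) over 9831 genes (mean FPKM of 1 or more), after a check on simulated data. On this scale the change of weakly expressed genes is understated. Some genes met the filter only through the group where they were higher, as Tnfrsf23 did through R111A and Bik, Bcl2l2, Tnfrsf8 and Cd40 through WT. Passing meant an adjusted p under 0.05, and the study's thresholds add a 2-fold change. Groups came from the labels. Coordinates and promoters came from RefSeq (GRCm38.p6), and 16107 gene IDs matched it. Other steps used python 3.11.15 with pandas 2.3.3.

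The members and lists were chosen with earlier results of these data known. Named were all 10 genes, Zc3h12a, in each pathway list the genes past both thresholds without overlap (up to 4) and the 2 most abundant, in each comparison list the 2 largest changes, and in each marker list the gene with the highest mean over the 4 libraries and those at 0. Mlkl, Xiap, Cd4, Cd8a, Csf1r, Eomes, Ncr1, Ikzf4, Irf4, Tyrobp, Fcer2a, Ms4a1, Cd79b, Blnk, Tnfrsf1b, Cd27 and Ltbr were named after their values were seen. So were the genes given only as parts of a count, and the motifs were chosen after that too. Alternatives were other pseudocounts, filters and scalings, a replicate block, eBayes without trend or robust, and each library left out. The sum of the B cell markers is not reported here.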

Additional observations from a re-analysis of the deposited data

How the results depend on the processing

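Fas, Fasl, Tnfrsf10b and Tnfrsf1a were higher and passed under all 14 alternatives, with log2 fold changes of 1.77 to 2.31, 0.92 to 1.39, 0.96 to 1.39 and 0.65 to 1.15. Fadd and Cflar each passed in 13 of 14 and Ripk3 in 10 of 14, all lower in each. Casp8 was -0.020 after TPM rescaling, and Ripk1 was 0.012 with median-of-ratios factors, 0.040 after quantile normalization and -0.16 to 0.0069 when each library was left out. Lta was -0.30 after TPM rescaling, Rbck1 0.024 and Cul3 0.037 with median-of-ratios factors, and Rbck1 0.17 and Cul3 0.062 after quantile normalization. With each library left out, Lta ranged from -0.098 to 0.16, Tnfrsf22 from -0.32 to 0.00089 and Rbck1 from -0.19 to 0.057. None of these genes had passed, and the cause was not tested. The 2-fold count was 4 in 5 alternatives (pseudocount of 0.1 FPKM, median-of-ratios factors, quantile normalization, and without WT replicate 1 or R111A replicate 2), where Tnfrsf1a was at 1.02 to 1.15. With a pseudocount of 5 FPKM, 2 of the 10 genes in place of 3 were higher by 2-fold, since Tnfrsf10b (0.96) fell under it, and Tnfrsf21 (-0.44), Ticam1 (-0.69), Zbp1 (0.89) and Apaf1 (0.75) were under 2-fold as well.

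TPM rescaling gave 1 gene higher and 1 lower by 2-fold among the 10, against 3 and 0, with 1335 higher and 5096 lower in the whole table and 9 higher and 30 lower in the pathway lists. The median of the 10 genes, 0.12 as deposited, was then -0.21, and it was 0.31 when genes under a mean of 5 FPKM were dropped, which removed Tnfsf10. With a pseudocount of 1 FPKM in both genes the log2 difference of Fas to Cflar was 2.76 in place of 2.85. Of 378 counts and medians of single lists, 57 were counted as moved, 17 of them after TPM rescaling. The other 321 were not all unchanged. With median-of-ratios factors, for example, 11 genes in place of 8 were higher in the list of the TNF receptor 1 complex.

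Leaving out each library in turn, the lone library being assumed to vary like the other group, gave 4 to 5 of the 10 genes higher and 0 to 3 lower, medians of -0.022 to 0.25, 1413 to 2539 higher and 1937 to 3790 lower genes in the whole table, and 10 to 20 higher and 9 to 18 lower pathway genes. With the replicate block 2236 genes were higher and 3358 lower, and 4 and 3 of the 10 genes passed. The labels do not say that the numbers pair the libraries, and same-numbered libraries deviated together with a correlation across genes of 0.11, so the numbers are not taken to pair them.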

Other observations

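Some genes of the TNF receptor family that lie close together on a chromosome moved alike, and others did not. Tnfrsf1a lies on chromosome 6 with Cd27, 112586 bases away, and Cd27 was at 140.62 and 131.25 FPKM in WT against 316.13 and 282.28 FPKM in R111A. Ltbr lies between them and was at 0.09 FPKM or less in all 4 libraries. On chromosome 7, Tnfrsf26, Tnfrsf22 and Tnfrsf23 lie in that order with gaps of 6962 and 16131 bases, and the outer genes rose while Tnfrsf22 did not pass the test. On chromosome 4, Tnfrsf4 and Tnfrsf18 are 9708 bases apart, and Tnfrsf4 fell from 376.36 and 356.24 FPKM to 123.66 and 123.29 FPKM, as Tnfrsf18 did. These pairs were picked after their values were seen, and any link between position and change was not tested.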
